A study of Caenorhabditis elegans with 6 samples.

Results

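The genes described here encode subunits of the mitochondrial respiratory chain and of ATP synthase in Caenorhabditis elegans. They were chosen by name, as 37 listed genes that were sorted by complex I to V. Of these, 35 matched a probe set of the Affymetrix C. elegans array through the platform annotation, older sequence names included, and nuo-3 and ucr-11 were not analysed here. The matched genes had 50 probe sets, of the 22548 on the array that are not controls. A probe set was tested when its log2 value was above 4 on 3 or more of the 6 arrays. This left 49 of the 50 and 8053 in all, and every one of the 35 genes kept at least 1.

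The series held 3 arrays from worms given GYY4137, a slow donor of hydrogen sulfide (H2S), and 3 arrays from control worms. Both groups were whole animals of the wild-type strain N2 (Bristol), labelled as L4 larvae. The protocol text gives 100 uM GYY4137 for 48 h in liquid and 12 h on plates, and since it is the same for all 6 arrays, how the controls were handled in that time is not stated. The comparison asks which transcripts differ in level between exposed and control worms, and here whether those of the respiratory chain do. Nothing in the labels says that replicates came from separate cultures, so p-values measure the spread between these arrays only.

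Complex I takes electrons from NADH and complex II takes them from succinate, and both pass them to ubiquinone, a mobile lipid carrier. Complex III moves the electrons from ubiquinone to cytochrome c, and complex IV, cytochrome c oxidase, hands them to oxygen. Complexes I, III and IV pump protons across the inner membrane, and complex V, ATP synthase, uses the returning protons to make ATP. Hydrogen sulfide meets this chain at opposite ends of a concentration range: at high levels it inhibits complex IV, and at low levels sulfide:quinone oxidoreductase oxidises it and passes the electrons to ubiquinone. In C. elegans, mild loss of several of these subunits lengthens life, and loss of others shortens it.

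The array of GYY4137 replicate 3 differed from the rest. Over tested probe sets its log2 values correlated with those of the other arrays at Pearson r of 0.940 to 0.965, while the other 5 arrays correlated with each other at 0.979 to 0.993. It had 7723 probe sets above the value of 4, against 7927 to 8050 on the others. The main results that move with it are therefore also given without it. Markers of tissues and germ cells are given as mean log2 levels of each list on each array. On the probe set with the highest mean, 0 genes of these lists passed the test used below over all 6 arrays. A dimmer probe set of unc-89, in the muscle list, did pass (-0.66, GYY4137 minus control, limma adjusted p = 0.0461). Without GYY4137 replicate 3, 3 muscle genes and 1 oocyte gene passed as lower and 1 sperm gene as higher. In that fit 0 intestinal and 0 neuronal genes passed, and 4.62% of all genes did. The 12 body wall muscle markers averaged 8.73 to 9.02 on GYY4137 arrays and 9.01 to 9.22 on control arrays, and the 12 oocyte markers 7.92 to 8.12 against 8.29 to 8.35. Sperm markers, of which 8 of 14 were tested, averaged 6.10 to 6.53 against 5.77 to 5.86, while ssp-19, ssq-4, spe-9, spe-38 and fer-1 lay under the floor and ssp-9 was not analysed here. Intestinal markers, 9 of 10 tested with elt-2 under the floor, averaged 8.67 to 8.77 against 8.57 to 8.64. Neuronal markers, 7 of 10 tested with unc-119, unc-104 and sng-1 under the floor, averaged 6.39 to 6.49 against 6.23 to 6.46. The ranges of the muscle and neuronal lists overlapped between groups, and those of the oocyte, sperm and intestinal lists did not. The muscle overlap came from GYY4137 replicate 3 alone, at 9.024 against 9.013 on control replicate 1. GYY4137 replicates 1 and 2, at 8.73 and 8.83, lay below every control, and 11 of the 12 muscle genes were lower on average and 1 higher. The oocyte markers were well above the floor in worms labelled as larvae, so the age of the worms at harvest is uncertain. In whole worms, fewer cells of a type and less RNA per cell cannot be told apart, and the part of tissue makeup in the values below was not tested.

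No respiratory chain or ATP synthase gene passed the test between GYY4137 and control worms. In limma, with Benjamini-Hochberg adjustment over all tested probe sets and a threshold of 0.05, 0 of 35 passed, and 0 reached an unadjusted p under 0.05 in either direction. Of all 6221 tested genes, 1.49% passed after adjustment, 9.53% were higher at an unadjusted p under 0.05, and 7.83% were lower. The smallest adjusted p among the respiratory genes was 0.375, for cox-4. Differences are given as GYY4137 minus control on the log2 scale, and each ± is the limma standard error with 3 arrays per group. A gene with several probe sets is given by the one with the highest mean unless stated. Levels are not compared between genes, because each probe set has its own brightness.

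The differences were small. They ran from -0.20 for nuo-4 to 0.26 for asb-2, with a median of 0.05, and 23 genes stood above 0 and 12 below, or 28 and 7 when each array was centred on its median. Over all tested genes the median was -0.04, and 43.4% stood above 0. The middle 50% of the respiratory genes lay between -0.03 and 0.13, against -0.24 and 0.14 for all genes. A change of 1.5-fold, chosen as a mark after the values were seen, lay outside the 95% limma interval of 33 of the 35 genes (94.3%), in both directions. The intervals of sdha-1 and asb-2 reached past it, and among all genes 55.9% had an interval that stayed within 1.5-fold. Over all 49 tested probe sets of these genes 44 stayed within it, and the upper ends of a second ucr-2.2, a second atp-4 and a further cox-6A probe set lay beyond. With 1 probe set per gene, a 2-fold change lay outside the interval of all 35 genes, against 87.2% of all genes.

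**Figure D1:**
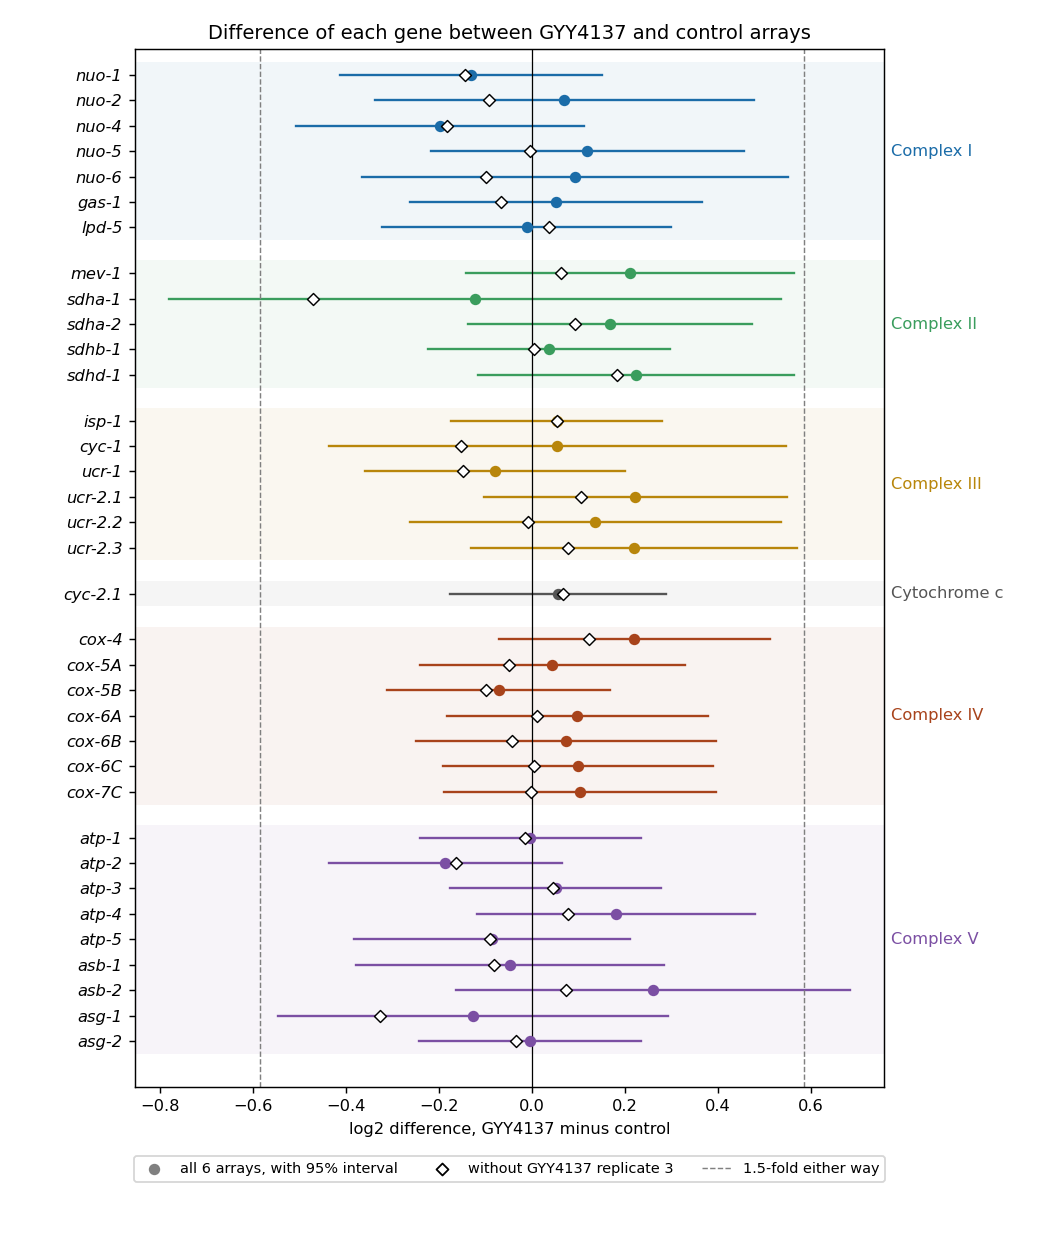
Difference in log2 value (horizontal axis, GYY4137 minus control) for each of the 35 genes, sorted by complex, with the 95% limma interval over 6 arrays as a bar and the value without GYY4137 replicate 3 as an open diamond. Every bar crosses 0, and the bars of sdha-1 and asb-2 pass the dashed lines that mark 1.5-fold.

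How far the 3 GYY4137 arrays lay from the control mean differed more than the group means did. The median over the 35 genes of the log2 value minus the control mean was -0.02 on GYY4137 replicate 1, -0.004 on replicate 2 and 0.29 on replicate 3. GYY4137 replicate 3 was the highest of the 6 arrays for 23 of the 35 genes (65.7%) and the lowest for 0. The same array was the highest or lowest GYY4137 array for every marker list. Its sperm marker mean was 6.53, against 6.10 and 6.25 on GYY4137 replicates 1 and 2, and its oocyte marker mean was 7.925, against 8.117 and 8.096. The body wall muscle mean on it was 9.02, against 8.73 and 8.83. Its intestinal mean was 8.77, against 8.67 and 8.72, and its neuronal mean was 6.49, against 6.39 and 6.46. The part of these in the respiratory values was not tested. Over all tested genes it was the highest for 27.7% and the lowest for 38.5%. Its distance from the mean of the other GYY4137 arrays had a median of 0.28 over the respiratory genes and -0.04 over all genes. The median standard deviation of the respiratory genes was 0.17 on GYY4137 arrays and 0.09 on control arrays, against 0.20 and 0.12 over all genes. Without GYY4137 replicate 3 the median difference was -0.01, and 15 of the 35 genes stood above 0. In that fit 0 of 35 passed, where 4.62% of all genes did, and sdha-1 and asg-1 alone had an unadjusted p under 0.05, both with lower values on GYY4137 arrays, where 9.58% of all genes were lower at that p.

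**Figure D2:**
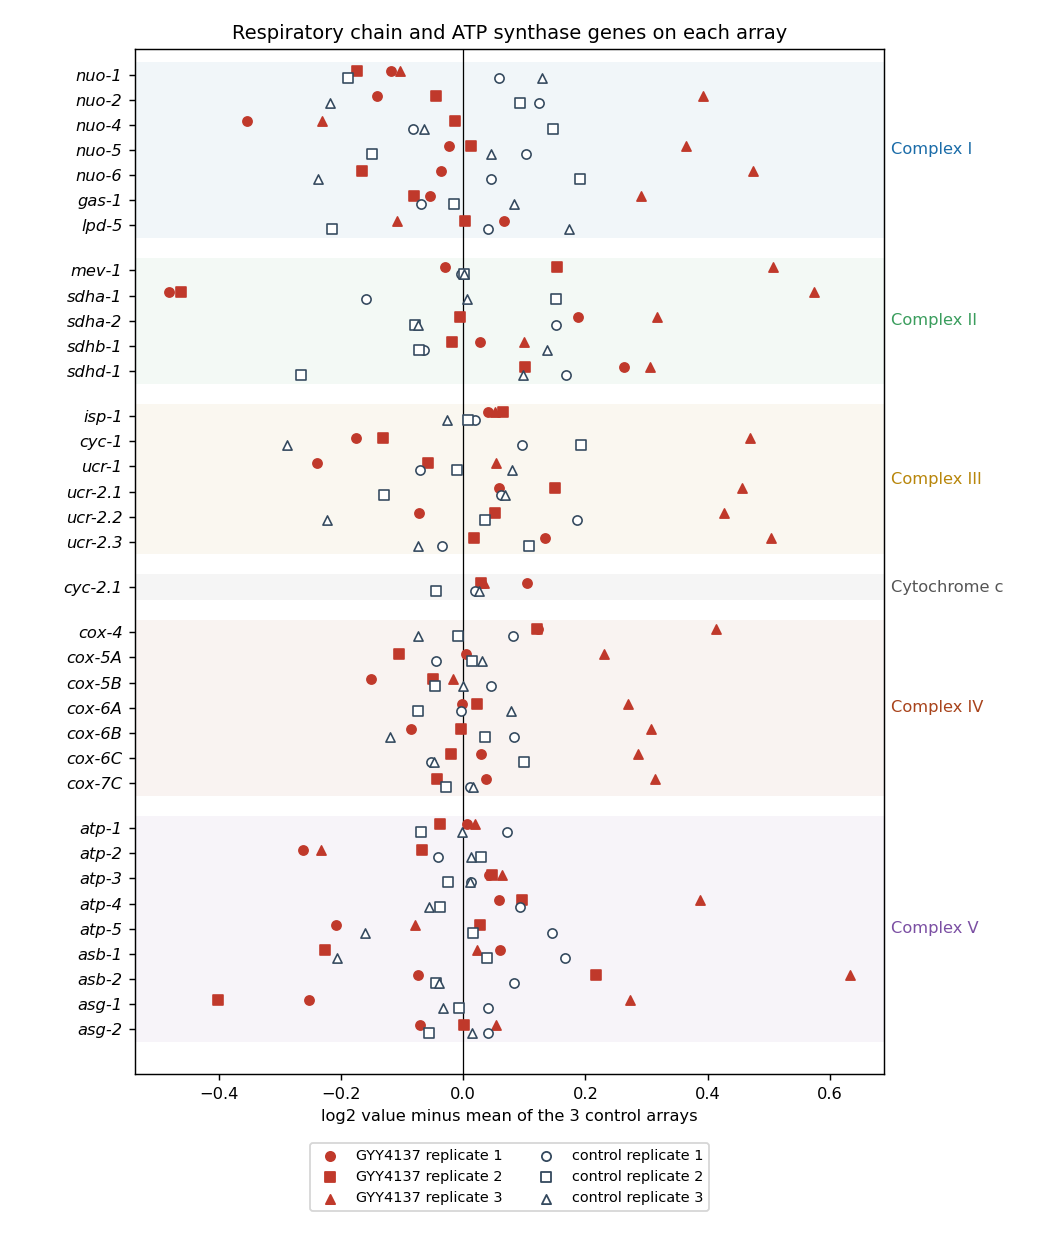
Log2 value minus the mean of the 3 control arrays (horizontal axis) for each of the 35 genes on each array, with filled red symbols for GYY4137 and open symbols for control. The filled triangles of GYY4137 replicate 3 lie farthest right for 23 genes. The filled circles and squares of the other GYY4137 arrays lie partly within and partly outside the range of the open control symbols.

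By complex, the median differences were 0.05 for complex I (7 genes), 0.17 for complex II (5), 0.09 for complex III (6), 0.10 for complex IV (7) and -0.005 for complex V (9). Without GYY4137 replicate 3 they were -0.09, 0.06, 0.02, -0.003 and -0.03 in the same order. The distance of that array from the mean of GYY4137 replicates 1 and 2 had a median of 0.36 in complex I, 0.22 in complex II, 0.39 in complex III, 0.28 in complex IV and 0.09 in complex V. This distance was smallest for ATP synthase, but the difference between complexes was not tested.

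In complex I, nuo-4 had the lowest difference. Nuo-4 encodes an accessory subunit. It had log2 values of 8.39, 8.73 and 8.52 on GYY4137 arrays and 8.66, 8.89 and 8.68 on control arrays, which is a difference of -0.20 ± 0.13 (limma adjusted p = 0.428). The groups overlapped, since GYY4137 replicate 2 lay above 2 of the controls. Its second probe set differed by -0.22, and without GYY4137 replicate 3 the values were -0.18 and -0.07. Nuo-1, the flavoprotein subunit that binds NADH, had 8.21, 8.16 and 8.23 on GYY4137 arrays and 8.39, 8.14 and 8.46 on control arrays. Its difference was -0.13 ± 0.12, with control replicate 2 below every GYY4137 array.

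Nuo-6 and gas-1 are complex I genes known for their mutants: a nuo-6 mutant lives long, and a gas-1 mutant is short-lived and hypersensitive to volatile anaesthetics. Nuo-6 had 7.48, 7.35 and 7.99 on GYY4137 arrays and 7.56, 7.71 and 7.28 on control arrays. Only GYY4137 replicate 3 lay above the controls, and the difference of 0.09 ± 0.20 became -0.10 without that array. Gas-1, a core subunit of the arm that reaches into the matrix, had 7.33, 7.30 and 7.67 on GYY4137 arrays and 7.31, 7.36 and 7.46 on control arrays, a difference of 0.05 ± 0.13. It showed the same single high array, and its difference was -0.07 without it. Nuo-2 and nuo-5, further core subunits of that arm, differed by 0.07 ± 0.17 and 0.12 ± 0.14, and by -0.09 and -0.005 without GYY4137 replicate 3. Lpd-5, an accessory subunit, differed by -0.01 ± 0.13, and GYY4137 replicate 3 was its lowest GYY4137 array at 8.51.

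Complex II is also succinate dehydrogenase of the TCA cycle. Mev-1 encodes the cytochrome b anchor in the membrane, and its mutant is sensitive to oxidants and short-lived. Its log2 values were 7.84, 8.02 and 8.37 on GYY4137 arrays and 7.86, 7.87 and 7.87 on control arrays. The controls were nearly equal, while the GYY4137 arrays spread on either side of them, and the difference was 0.21 ± 0.15 (95% interval -0.14 to 0.56; limma adjusted p = 0.456). Without GYY4137 replicate 3 it was 0.06. Sdhd-1, the small membrane anchor, had 7.97, 7.81 and 8.01 on GYY4137 arrays and 7.88, 7.44 and 7.81 on control arrays. The GYY4137 values lay within or just above the control range, of which control replicate 2 was the low end, and the difference was 0.22 ± 0.15, or 0.18 without GYY4137 replicate 3.

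The flavoprotein subunit of complex II, which oxidises succinate, is encoded by sdha-1 and sdha-2. Sdha-1 had 6.14, 6.16 and 7.19 on GYY4137 arrays and 6.46, 6.77 and 6.62 on control arrays. No other respiratory gene had a wider spread among the GYY4137 arrays: replicates 1 and 2 lay below every control, and replicate 3 lay above every control. The difference was -0.12 ± 0.28 over all arrays and -0.47 ± 0.12 without GYY4137 replicate 3, where the limma adjusted p was 0.0630. A second sdha-1 probe set lay under the floor, near 2.8 on all arrays. Sdha-2 had 7.39, 7.19 and 7.51 on GYY4137 arrays and 7.35, 7.12 and 7.12 on control arrays, which overlapped, and the difference was 0.17 ± 0.13. Sdhb-1, the iron-sulfur subunit, differed by 0.04 ± 0.11 on 1 probe set and 0.06 on the other.

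In complex III, isp-1 varied little between arrays. It encodes the Rieske iron-sulfur protein, and a mutant in it is long-lived. Its log2 values were 10.33, 10.36 and 10.34 on GYY4137 arrays and 10.31, 10.30 and 10.27 on control arrays. The GYY4137 arrays all lay above the controls, by 0.05 ± 0.10 on average (95% interval -0.17 to 0.28; limma adjusted p = 0.779), and the difference stayed at 0.05 without GYY4137 replicate 3. Its second probe set differed by 0.03 with overlapping groups. Cyc-1, cytochrome c1, had 7.23, 7.28 and 7.88 on GYY4137 arrays and 7.50, 7.60 and 7.12 on control arrays. Control replicate 3 was its lowest array and GYY4137 replicate 3 its highest, and the difference was 0.05 ± 0.21, or -0.15 without GYY4137 replicate 3 and -0.09 without control replicate 3. The second cyc-1 probe set, which can bind related transcripts, differed by -0.07.

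The core proteins of complex III hold the complex together on its matrix side and derive from processing peptidases. Ucr-2.1 had 7.81, 7.90 and 8.21 on GYY4137 arrays and 7.82, 7.62 and 7.82 on control arrays. GYY4137 replicate 1 fell within the controls and the other GYY4137 arrays above them, a difference of 0.22 ± 0.14 that was 0.10 without GYY4137 replicate 3. Ucr-2.2 differed by 0.14 ± 0.17 and ucr-2.3 by 0.22 ± 0.15, and without that array by -0.01 and 0.08. Ucr-1 differed by -0.08 ± 0.12. Cyc-2.1, a cytochrome c that ferries electrons to complex IV, had 11.14, 11.06 and 11.07 on GYY4137 arrays and 11.05, 10.99 and 11.06 on control arrays. All GYY4137 values lay above the controls, but by 0.06 ± 0.10 on average, and GYY4137 replicate 3 was not the highest.

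Complex IV is the enzyme that high sulfide inhibits. Cox-4 had the smallest p of the module, with log2 values of 9.08, 9.08 and 9.37 on GYY4137 arrays and 9.04, 8.95 and 8.89 on control arrays. All GYY4137 arrays lay above all controls, by 0.22 ± 0.12 on average (95% interval -0.07 to 0.51; limma adjusted p = 0.375). Without GYY4137 replicate 3 the difference was 0.12. Cox-6A had 9.930, 9.956 and 10.202 on GYY4137 arrays and 9.929, 9.859 and 10.012 on control arrays, which overlapped, a difference of 0.10 ± 0.12. A further cox-6A probe set had 9.72, 9.75 and 9.99 on GYY4137 arrays and 9.58, 9.56 and 9.40 on control arrays. Its groups were apart by 0.31 ± 0.12, with a limma adjusted p of 0.261, and by 0.22 without GYY4137 replicate 3. The remaining cox-6A probe set differed by 0.18, also with groups apart, and by 0.07 without GYY4137 replicate 3. All 3 cox-6A probe sets are of the kind that can bind related transcripts.

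The other nuclear subunits of complex IV listed here are structural and surround the catalytic core that mitochondrial DNA encodes. Cox-6C, cox-7C and cox-6B differed by 0.10 ± 0.12, 0.10 ± 0.13 and 0.07 ± 0.14, and by 0.005, -0.003 and -0.04 without GYY4137 replicate 3, which was the highest array for all 3. Cox-5A differed by 0.04 ± 0.12, with 0.06 on its second probe set. Cox-5B was the complex IV gene below control, at 10.14, 10.24 and 10.27 on GYY4137 arrays and 10.33, 10.24 and 10.29 on control arrays. The groups overlapped, and the difference was -0.07 ± 0.10.

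In complex V, atp-2 was the gene whose GYY4137 values all lay below the controls. It encodes the beta subunit that carries the catalytic sites. Its log2 values were 10.56, 10.76 and 10.59 on GYY4137 arrays and 10.78, 10.85 and 10.84 on control arrays. The gap between the nearest arrays was narrow, and the difference was -0.19 ± 0.11 (95% interval -0.44 to 0.06; limma adjusted p = 0.376), or -0.16 without GYY4137 replicate 3. Atp-1, the alpha subunit that alternates with beta in the same ring, had overlapping groups. It had 10.207, 10.162 and 10.220 on GYY4137 arrays and 10.272, 10.131 and 10.198 on control arrays, which differed by -0.004 ± 0.10.

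Atp-3, the stalk protein that joins the catalytic head to the stator and whose loss by RNA interference in larvae lengthens life, had 8.64, 8.65 and 8.67 on GYY4137 arrays and 8.62, 8.58 and 8.61 on control arrays. The groups were apart by only 0.05 ± 0.10, and quantile normalization turned the difference to -0.009. Atp-4, a coupling factor of the stator, had 9.72, 9.76 and 10.05 on GYY4137 arrays and 9.75, 9.62 and 9.60 on control arrays, a difference of 0.18 ± 0.13. Its second probe set had 8.51, 8.55 and 8.72 on GYY4137 arrays and 8.42, 8.24 and 8.19 on control arrays. There the groups were apart by 0.31 ± 0.12 (limma adjusted p = 0.250) and by 0.25 without GYY4137 replicate 3. This and the further cox-6A probe set were the 2 of the 49 tested that had an unadjusted p under 0.05, both higher, as were 9.20% of all tested probe sets. Atp-5, subunit d, differed by -0.09 ± 0.13, -0.02 and 0.07 on its 3 probe sets. Asg-2, a subunit g, differed by -0.005 ± 0.10.

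On all GYY4137 arrays, isp-1, cyc-2.1, cox-4 and atp-3 thus lay above every control, and atp-2 lay below. Such separation was seen in 4 of 35 respiratory genes upward and 1 of 35 downward, while 13.7% of all tested genes were above every control and 14.5% below. Of the 12 respiratory genes with more than 1 tested probe set, asg-1, atp-5 and cyc-1 had probe sets of opposite sign. Of the 50 probe sets, 30 are of a kind that can bind related transcripts. The probe sets that stand for cox-4, isp-1, atp-2, atp-3, nuo-4 and asg-1 are among them.

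Several subunits have more than 1 gene, and the ratio within an array sets the paralogs against each other free of array-wide shifts. The probe sets used for asb-1, asg-1, sdha-2 and ucr-2.2 are of the kind that can bind related transcripts. Whether they also bind the paralog was not tested. In C. elegans, subunit b of ATP synthase is made from asb-1 in the germline and from asb-2 in the soma. Asb-1 had 7.99, 7.70 and 7.95 on GYY4137 arrays and 8.09, 7.96 and 7.72 on control arrays, a difference of -0.05 ± 0.14. Asb-2 had 6.708, 6.999 and 7.414 on GYY4137 arrays and 6.864, 6.737 and 6.741 on control arrays, a difference of 0.26 ± 0.18. The log2 ratio of asb-1 to asb-2 was 1.28, 0.70 and 0.54 on GYY4137 arrays and 1.23, 1.23 and 0.98 on control arrays. The ratios of GYY4137 replicates 2 and 3 lay below all controls and that of replicate 1 above them, and the difference of -0.31 had a two-sided exact permutation p of 0.4. The germline marker values above, lower for oocytes and higher for sperm on GYY4137 arrays, stand beside this ratio, and their part in it was not tested.

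Asg-1 and asg-2 both encode subunit g. Asg-1 had 8.39, 8.24 and 8.92 on GYY4137 arrays and 8.68, 8.64 and 8.61 on control arrays. As with sdha-1, GYY4137 replicates 1 and 2 lay below every control and replicate 3 above, and the difference was -0.13 ± 0.18, or -0.33 ± 0.11 without replicate 3 (limma adjusted p = 0.133). Weighting arrays by their quality, which gave GYY4137 replicate 3 a weight of 0.143, made asg-1 the 1 respiratory gene that passed (-0.38 ± 0.09, limma adjusted p = 0.0220), where 17.2% of all genes passed. The second asg-1 probe set differed by 0.09, so its probe sets did not point the same way. The asg-1 to asg-2 ratio differed by -0.12 (two-sided exact permutation p = 0.6).

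The ratio of sdha-2 to sdha-1 was 1.25, 1.04 and 0.32 on GYY4137 arrays and 0.89, 0.35 and 0.50 on control arrays on the log2 scale. Its difference was 0.29 (two-sided exact permutation p = 0.5), and 0.56 without GYY4137 replicate 3, on which the ratio was the lowest of all arrays. The cytochrome c ratio of cyc-2.1 to cyc-2.2 differed by 0.15 (exact p = 0.8), and by -0.09 without that array. The ratios of ucr-2.2 and ucr-2.3 to ucr-2.1 differed by -0.09 and -0.003 (exact p = 0.6 and 1). In all, 6 ratios were tested, the smallest p that 3 arrays against 3 allow is 0.1, and after Benjamini-Hochberg adjustment none was below 0.9.

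**Figure D3:**
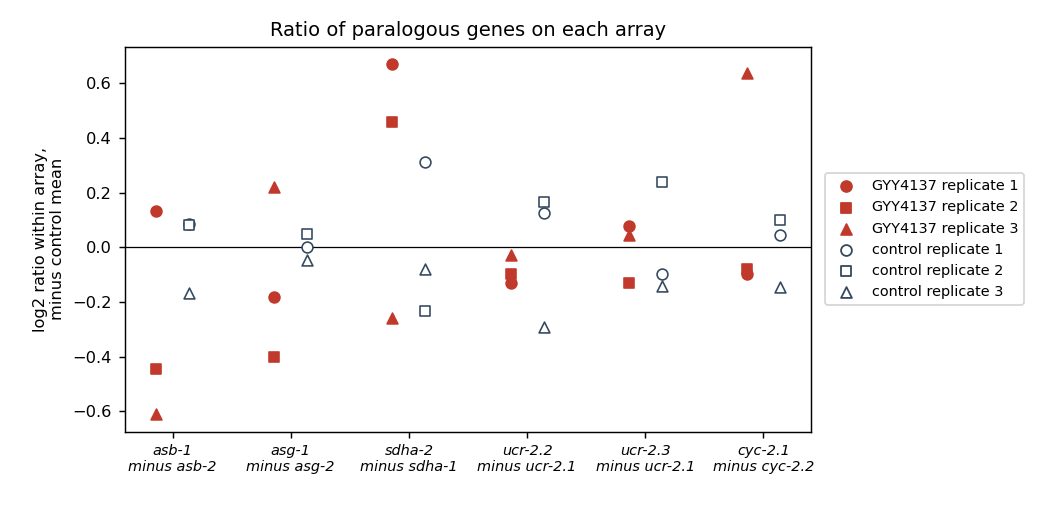
Log2 ratio within each array for 6 pairs of genes that encode the same subunit, minus the mean ratio of the 3 control arrays (vertical axis), with GYY4137 arrays as filled red symbols left of the open control symbols. In the sdha, asg and cyc-2 pairs GYY4137 replicate 3 lies on the opposite side of 0 from the other GYY4137 arrays.

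Further subunits of the same complexes were counted as a list. Of 46 listed, 42 were tested and 0 passed, with a median difference of 0.007 and 23 above 0, beside 1.49% of all genes passing. Without GYY4137 replicate 3 the median was -0.04 and 14 stood above 0. Ndab-2, a mitochondrial acyl carrier protein, had the smallest p, with log2 values of 8.33, 8.31 and 8.50 on GYY4137 arrays and 8.19, 7.98 and 7.98 on control arrays. All GYY4137 arrays lay above the controls, by 0.33 ± 0.12 (limma adjusted p = 0.225). The next by p were F45H10.2 (-0.20 ± 0.11), nduc-2 (0.22 ± 0.12) and ndub-6 (-0.15 ± 0.11), each with separate groups. For nduc-2 the groups nearly met, at 7.9507 on GYY4137 replicate 2 and 7.9505 on control replicate 3. A second ndub-6 probe set differed by 0.0016 with overlapping groups.

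Mitochondrial DNA encodes the membrane core of complexes I, III and IV and a channel subunit of complex V. The 8 tested genes of this kind had a median difference of 0.008, with 4 above 0 and 4 below. Without GYY4137 replicate 3 the median was -0.05 and 0 stood above 0, with ND5 not tested in that fit. COX1, the catalytic subunit of complex IV, had 9.85, 9.84 and 10.21 on GYY4137 arrays and 9.95, 10.12 and 9.98 on control arrays, which overlapped with a difference of -0.05 ± 0.14. Leaving out GYY4137 replicate 3 made the COX1 difference -0.18. ATP6, the channel subunit, differed by 0.13 ± 0.15, the most of the 8, but by -0.01 without that array. CYTB, the cytochrome b of complex III, differed by -0.007 ± 0.11, and ND1 and ND4 of complex I by -0.01 ± 0.19 and 0.02 ± 0.14. COX2, COX3 and ND5 differed by 0.06 ± 0.22, -0.04 ± 0.11 and 0.08 ± 0.15. The distance of GYY4137 replicate 3 from the mean of GYY4137 replicates 1 and 2 had a median of 0.34 in these genes and 0.14 in the 34 further nuclear subunits.

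Assembly factors insert cofactors and subunits into the complexes. Of 13 listed, 9 were tested and 0 passed, with a median of -0.04 and 3 above 0. Sco-1, which delivers copper to complex IV, had 5.77, 5.68 and 5.65 on GYY4137 arrays and 5.92, 5.93 and 6.15 on control arrays. It lay below the controls on every GYY4137 array, by -0.30 ± 0.11 (limma adjusted p = 0.246). Cox-17, the copper chaperone upstream of it, differed in the other direction by 0.44 ± 0.20 with overlapping groups, and by 0.28 without GYY4137 replicate 3. Oxa-1, which inserts subunits into the inner membrane, differed by -0.39 ± 0.18, and nuaf-3, a complex I assembly factor, by -0.23 ± 0.19, or -0.02 without that array.

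Ubiquinone synthesis genes supply the pool through which sulfide electrons would enter. They were listed together with cyc-2.2, sqrd-1, dhod-1, ucp-4 and the ant and mai genes, which do not make ubiquinone. The counts and the median cover this whole mixed list. Of 18 listed, 13 were tested and 0 passed, with a median of -0.11 and 9 below 0. Clk-1, the hydroxylase of ubiquinone synthesis whose mutants live long, had 4.83, 4.96 and 4.96 on GYY4137 arrays and 5.17, 5.27 and 4.99 on control arrays. The groups were apart by a narrow gap, with a difference of -0.22 ± 0.12 (limma adjusted p = 0.352). Coq-3, a methyltransferase of the same route, stood the other way at 0.34 ± 0.11 (adjusted p = 0.207) with groups apart. Coq-2, the prenyltransferase, and coq-8, a kinase-like protein, differed by -0.39 ± 0.16 and -0.35 ± 0.18 with overlapping groups, and coq-8 by -0.15 without GYY4137 replicate 3. Sqrd-1, the sulfide:quinone oxidoreductase, was under the floor on every array, at 3.25, 3.49 and 3.08 on GYY4137 arrays and 3.54, 3.87 and 3.62 on control arrays, and was not tested.

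Neighbouring mitochondrial lists were set beside the chain by their counts. Mitochondrial ribosomal protein genes had a median of 0.09 over 56 tested, 36 above 0 and 0 passing, with the smallest limma adjusted p at 0.187 for mrpl-17 (0.44 ± 0.14). TCA cycle genes, which feed NADH and succinate to the chain, had a median of -0.01 over 16 tested, 8 above 0 and 0 passing. Without GYY4137 replicate 3 their median was -0.08 and 5 stood above 0. GYY4137 replicate 3 was the highest array for 12 of these 16, and its distance above the other GYY4137 arrays had a median of 0.37. Mitochondrial stress genes had a median of -0.03 over 7 tested of 10, with 0 passing.

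**Figure D4:**
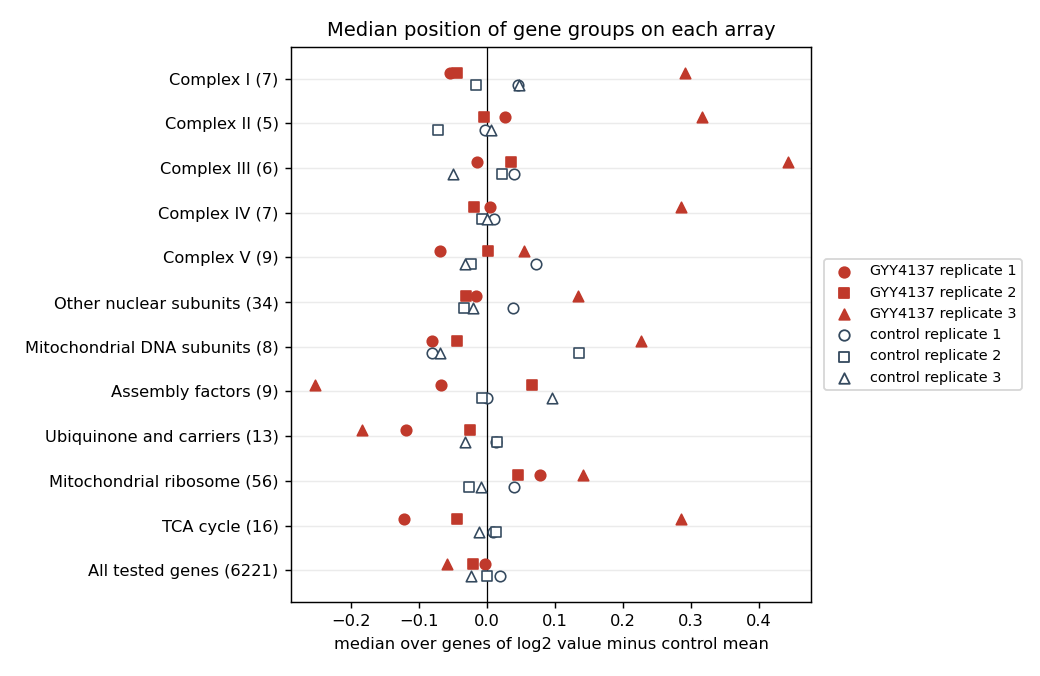
Median over the genes of each list of the log2 value minus the control mean (horizontal axis) on each array, with the number of genes in brackets, filled red symbols for GYY4137 and open symbols for control. GYY4137 replicate 3 lies at 0.29 for complexes I and IV, at 0.05 for complex V and at -0.06 for all tested genes.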

How the data were processed

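RNA from 6 whole-worm samples was measured on Affymetrix C. elegans arrays. The authors deposited 1 log2 value per probe set and array, made with GCRMA, per the submitters' processing notes. GCRMA corrects background by probe sequence, normalizes between arrays and summarises probes, which narrows differences of dim probe sets. The values ran from 1.88 to 13.3 and were read as log2 from that range, and the GCRMA version is not given in the sources used here. No further normalization was applied.

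Genes were named from the platform annotation, updated through a RefSeq table of assembly WBcel235. There were 20766 probe sets with 1 symbol, 887 with several and 972 with none, and only the first were used. Groups came from sample titles. The difference between GYY4137 and control arrays was tested with lmFit and eBayes of limma 3.58.1 (two-sided), run in R 4.3.3 and tested on simulated data. Paralog ratios were tested by exact permutation over arrays. The 77 control probe sets were left out, and a gene was its probe set with the highest mean, which gave 6221 genes. The number of arrays limits the precision.

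Every listed gene was named, and of each further list those with the smallest p, up to 4 (the text gives fewer for the neighbouring mitochondrial lists, and every tested mitochondrial DNA gene). Genes and lists were chosen with earlier results of these data known. Alternatives covered the floor, normalization, array weights, an intensity trend, the replicate number as a block, averaging probe sets and leaving out each array.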

Additional observations from a re-analysis of the deposited data

How the results depend on the processing

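With 3 arrays per group, the 95% intervals of 33 of the 35 genes, and of 44 of their 49 tested probe sets, stayed within 1.5-fold. The count of 0 passing genes among the 35 was the same with no floor, a floor of 6, quantile normalization, median centring, an intensity trend, averaged probe sets, each array left out in turn (0 to 0) and an adjusted p under 0.1; array weights gave 1. The count of 0 at an unadjusted limma p under 0.05 did change with the setting. It was 1 lower with no floor, 1 lower with an intensity trend and 3 lower with array weights. Without GYY4137 replicate 1 it was 1 higher, and without GYY4137 replicate 3 it was 2 lower. With the replicate number as a block, 0 of the 35 and 52 of all genes passed, against 93 without it. The labels give no pairing, so the numbers were not taken as pairs. Deviations from the group mean correlated at 0.11, -0.02 and 0.05 for same-numbered arrays, and at -0.13 to 0.11 for the others. These values cannot decide on pairing, because the deviations within a group of 3 sum to 0. The floor changed how many genes were tested: 24 of 17138 passed with no floor and 61 of 2973 with a floor of 6, against 93 of 6221. Of the same 6221 genes, 113 passed with quantile normalization, 117 with median centring, 115 with a trend and 1067 with array weights. Leaving out an array gave 38, 16 and 285 for GYY4137 replicates 1, 2 and 3 and 7, 4 and 12 for control replicates 1, 2 and 3. Genes above and below 0 numbered 23 and 12, 21 and 14 with quantile normalization, 28 and 7 with centring and 14 and 21 with array weights.

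Differences changed sign for 17 of the 35 genes under settings that keep all arrays and for 16 when 1 array was left out; the cause was not tested. Quantile normalization gave sdhb-1 -0.00948, atp-3 -0.00936 and the ucr-2.3 to ucr-2.1 ratio 0.0405. Median centring gave lpd-5 0.0605, cox-5B 0.000202, atp-1 0.0685, asb-1 0.0253 and asg-2 0.0678. Array weights gave nuo-2 -0.101, nuo-5 -0.0202, nuo-6 -0.156, gas-1 -0.0400, lpd-5 0.00125, sdha-2 -0.0267, cyc-1 -0.168, ucr-2.2 -0.033, cox-5A -0.0638, cox-6B -0.0422 and cox-7C -0.0252. Averaged probe sets gave cyc-1 -0.00992. When 1 array was left out, differences ran from -0.471 to 0.0565 for sdha-1, -0.0345 to 0.0275 for asg-2, -0.039 to 0.0316 for atp-1, -0.151 to 0.0416 for asb-1, -0.327 to 0.0104 for asg-1, -0.0924 to 0.174 for nuo-2, -0.00536 to 0.188 for nuo-5 and -0.101 to 0.219 for nuo-6. The same ranges were -0.0677 to 0.118 for gas-1, -0.12 to 0.0743 for lpd-5, -0.153 to 0.169 for cyc-1, -0.0099 to 0.239 for ucr-2.2, -0.0506 to 0.117 for cox-5A, -0.0444 to 0.152 for cox-6B, -0.00254 to 0.175 for cox-7C and -0.000162 to 0.104 for sdhb-1. Ratios ran from -0.292 to 0.0182 for the asg-1 to asg-2 ratio, -0.0736 to 0.116 for the ucr-2.3 to ucr-2.1 ratio and -0.0888 to 0.278 for the cyc-2.1 to cyc-2.2 ratio. The median of complex V was -0.0630 with quantile normalization and 0.0678 with centring, and the medians of complexes II and IV were 0.0200 and -0.0252 with array weights.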
